A study of Mus musculus with 6 samples.

Results

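Respiratory chain complexes I to III are described here by 56 genes of 18193 measured. They were chosen by symbol, as every gene whose symbol starts with Nduf or Uqcr or is Sdha, Sdhb, Sdhc or Sdhd. Earlier results of these data were known when the members were chosen. The brightest probe set (a set of short probes that reads 1 transcript region) stood for each gene. By role they fell into 6 core subunits, 28 accessory subunits and 8 assembly factors (Ndufaf) of complex I, the 4 subunits of complex II, 8 subunits of complex III, and Ndufa4 and Ndufa4l2. Mouse mesenchymal stem cells from a supplier were grown in dishes, and each of 3 experiments held 1 culture kept for 2 h under a 2.52 THz laser (wavelength 118.8 µm) and 1 unexposed control culture at the same 26 to 27 °C. RNA was taken directly after exposure and each of the 6 cultures was read on 1 Affymetrix array, 3 irradiated and 3 control. Both groups had received 1 µM rosiglitazone, 5 µg/ml insulin, 100 µM isobutylmethylxanthine and 1 µM dexamethasone again 48 h before, so no culture without these compounds was compared. The labels name no clone or donor, and each group rests on 1 culture per experiment.

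The respiratory chain sits in the inner mitochondrial membrane. Complex I takes electrons from NADH and complex II from succinate, both hand them to ubiquinone, and complex III passes them from ubiquinol to cytochrome c, while complexes I and III move protons across the membrane. Complex I combines core subunits that carry out the chemistry with many accessory subunits, and it is put together by assembly factors that leave before the enzyme is finished. Fat cells gain mitochondria and respiratory capacity as they form, and nuclear genes of the chain are known targets of the transcription factors NRF1, GABP and YY1.

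The promoters of 4 members are shown because they hold the letters by which these factors are known to bind. Of the 56 members 47 had an entry in the RefSeq promoter table, with 49 promoters of 300 bases around the gene start. The letters GCGCATGC, the core of the NRF1 motif, occurred on either strand in 7 member promoters (14.3%) and in 2.71% of all 32851 promoters. AAGATGGC, as bound by YY1, occurred in 7 (14.3%) and in 2.75% of all, and CCGGAAGT, as bound by GABP and other ETS factors, in 3 (6.12%) and in 3.89% of all. A match describes the letters only, and binding was not measured. Capitals mark these letters on either strand (overlapping matches run together), the sequences are written along the gene's strand, and coordinates are GRCm38.p6. Uqcr11 (complex III, chr10:80406772-80407071, minus strand) holds the NRF1 and the ETS letters, Sdhb (complex II, chr4:140961021-140961320, plus strand) and the assembly factor Ndufaf4 (chr4:24897833-24898132, plus strand) those of NRF1, and the accessory subunit Ndufb8 (chr19:44555393-44555692, minus strand) those of YY1. Counted from the gene start, the matches begin at -4 (NRF1 letters) and -66 (ETS letters) in Uqcr11, at -54 in Sdhb, at -113, -111 and 1 in Ndufaf4, and at 38 in Ndufb8.
Uqcr11: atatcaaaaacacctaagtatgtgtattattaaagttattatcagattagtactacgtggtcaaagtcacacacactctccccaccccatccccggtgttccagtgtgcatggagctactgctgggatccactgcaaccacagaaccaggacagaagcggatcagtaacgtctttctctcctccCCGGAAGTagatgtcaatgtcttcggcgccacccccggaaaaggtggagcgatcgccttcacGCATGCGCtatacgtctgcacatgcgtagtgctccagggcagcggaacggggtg
Sdhb: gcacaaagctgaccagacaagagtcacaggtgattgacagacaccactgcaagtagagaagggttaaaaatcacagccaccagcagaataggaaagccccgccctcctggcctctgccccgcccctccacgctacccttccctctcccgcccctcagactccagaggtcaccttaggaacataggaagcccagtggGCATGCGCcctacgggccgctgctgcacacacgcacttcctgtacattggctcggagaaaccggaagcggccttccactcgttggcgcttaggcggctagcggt
Ndufaf4: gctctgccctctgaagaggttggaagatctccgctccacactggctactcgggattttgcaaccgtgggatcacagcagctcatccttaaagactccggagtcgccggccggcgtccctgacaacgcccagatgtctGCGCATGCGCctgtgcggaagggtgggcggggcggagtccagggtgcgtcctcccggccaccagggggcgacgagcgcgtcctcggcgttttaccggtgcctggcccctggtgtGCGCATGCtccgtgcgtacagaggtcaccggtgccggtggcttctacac
Ndufb8: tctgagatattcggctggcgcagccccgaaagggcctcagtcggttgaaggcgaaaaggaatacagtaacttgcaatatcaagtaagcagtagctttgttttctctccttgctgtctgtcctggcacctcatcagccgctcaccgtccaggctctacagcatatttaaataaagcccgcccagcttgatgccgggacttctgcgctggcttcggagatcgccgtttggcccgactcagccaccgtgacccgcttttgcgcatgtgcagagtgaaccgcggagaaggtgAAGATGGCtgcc

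On the arrays the members were bright. Values are RMA log2 levels, on which 1 unit is a doubling. The median gene of the array had a level of 6.46, and 54 of 56 members were at or above it. At or above the 90th percentile of all genes, a level of 10.11, were 42 of 56. The median level was 11.13 over core subunits (range 9.91 to 11.69) and 11.43 over accessory subunits (2.97 to 12.60). It was 10.90 over complex II (10.25 to 11.09) and 11.46 over complex III (10.82 to 13.56). Because probes differ in how well they bind, such a level says where a gene lies on the scale of the array and gives no ratio between genes.

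Assembly factors sat lower on this scale than the subunits they help to join. Their median level was 7.89, with a range of 6.67 for Ndufaf6 to 9.71 for Ndufaf4. All 8 were at or above the median gene, and 0 of 8 reached the 90th percentile, where 29 of the 34 complex I subunits lay. The exceptions among the subunits were Ndufs1 (9.91), Ndufs4 (9.94), Ndufb1 (7.18), Ndufs5 (6.89) and Ndufb4 (2.97). For Ndufs5 and Ndufb4, brighter probe sets exist that name several genes (levels 11.06 and 10.92), and these were not counted by the rule. Ndufa4, first described as a complex I subunit and since assigned to complex IV, stood at 12.35, and its relative Ndufa4l2, known as a hypoxia-inducible gene, at 5.87.

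**Figure D1:**
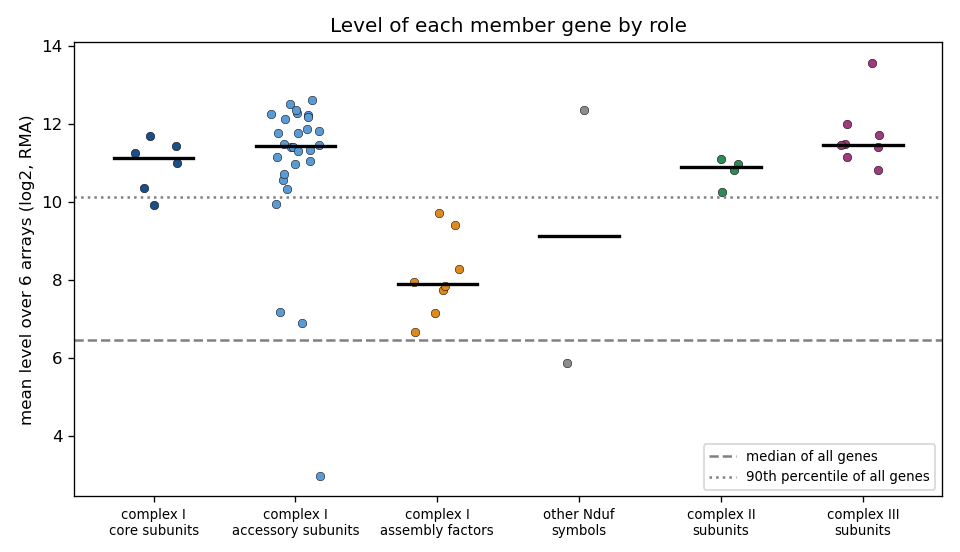
Each point is 1 member gene, placed by its mean log2 level over the 6 arrays (vertical axis) in its role group (horizontal axis). Thick lines are group medians, and dashed and dotted lines the median (6.46) and 90th percentile (10.11) of all genes. The 8 assembly factors lie between these lines, below all 12 subunits of complexes II and III.

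Markers of several cell types were read beside the label of mesenchymal stem cells. All 9 measured fat cell markers reached the median gene, with Adipoq, the hormone adiponectin, at 13.72. So did 8 of 9 mesenchymal stromal markers and 9 of 9 macrophage markers (Lyz2 at 14.17). Thy1, a defining stromal marker, was below it at 3.88, as were all 5 endothelial, all 6 muscle, all 4 lymphocyte and 3 of 4 epithelial markers. Brown fat markers reached it in 1 of 7, with Ucp1, the uncoupling protein, at 4.49. Array medians over all probe sets lay between 5.01 and 5.05, and an array has no read depth, so that the number of arrays limits the precision.

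Irradiated cultures and their own controls differed in no member by a margin that passed the test. limma with the experiment as a block and Benjamini-Hochberg adjustment over all genes called 0 of 56 members and 0 of 18193 genes (0%). The adjusted p was 0.995 for every member in limma. At an unadjusted p under 0.05 limma gave 0 members in either direction, where it gave 1.89% of all genes lower and 1.42% higher. The smallest unadjusted p of a member in limma was 0.0595, for Ndufaf3. The moderated 95% intervals of all 56 members lay between -0.43 and 0.32 log2 units, that is, within 1.35-fold down and 1.25-fold up, and the median half-width was 0.20.

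Although none passed, the differences leaned to one side. The mean irradiated-minus-control difference was below 0 in 52 of 56 members (92.9%), against 53.3% of all genes. Its median over members was -0.067 log2 units, against -0.010 over all genes. Experiment by experiment the lean was uneven. In experiment 1 the difference was below 0 in 31 of 56 members (55.4%), close to the 56.4% of all genes. In experiment 2 it was below 0 in 49 members (87.5%), against 50.1% of all genes, and in experiment 3 in 43 members (76.8%), against 48.5%. The mean over members was -0.0059, -0.11 and -0.083 in experiments 1 to 3, or -0.067 ± 0.055 (SD, n = 3 experiments). The value of experiment 1 turned to 0.064 with each array centred on its median gene, and to 0.0011 without probe sets ending in _s_at or _x_at. The control of experiment 3 stood apart in a sign of RNA quality, the level of actin at its 3' end minus that at its 5' end, which was 0.68, against 0.50 to 0.57 on the other 5 arrays. For Gapdh it was 0.11, against -0.10 to -0.08 on the others. Over all members that array was the highest of the 6, at 0.055 above their mean, and its part in the differences of experiment 3 was not tested. Without experiment 3 the mean over members was -0.059, with 45 of 56 below 0 (54.9% of all genes).

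**Figure D2:**
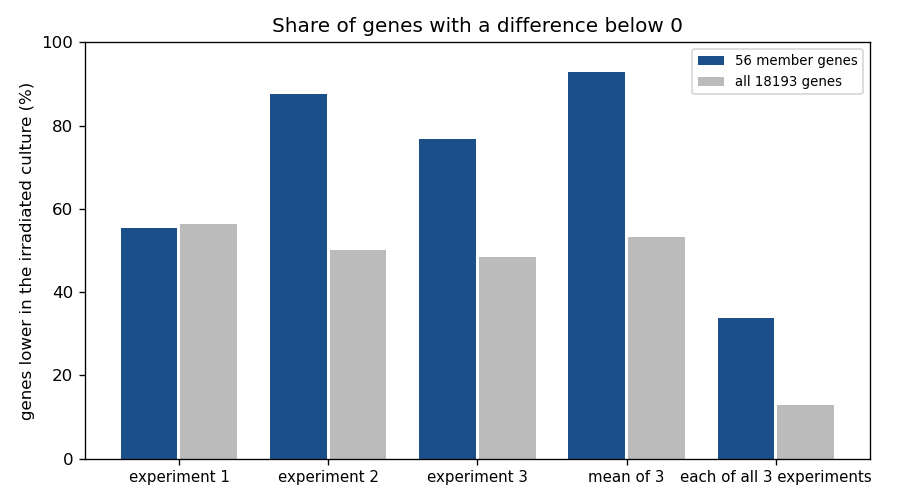
Bars give the percentage of genes whose irradiated-minus-control difference was below 0 (vertical axis), for the 56 members and for all 18193 genes, in each experiment, for the mean of 3 and for genes below 0 in each of the 3. In experiment 1 both bars stand near 56%, and in experiment 2 the members reach 87.5% against 50.1% of all genes.

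Members below 0 in all 3 experiments numbered 19 of 56 (33.9%), against 12.8% of all genes, and none was above 0 in all 3, against 8.23% of all genes. Among the 1820 genes at or above the 90th percentile of level, 11.9% were below 0 in all 3 experiments, with 16 of the 42 members there. The 3 irradiated arrays lay below all 3 controls in 11 members (19.6%), against 5.36% of all genes, and above them in 0, against 2.9%. The 11 were the core subunit Ndufs7, the accessory subunits Ndufa5, Ndufb3, Ndufb8, Ndufs4 and Ndufs5, the assembly factor Ndufaf3, Ndufa4, Sdhb, Sdhc and Uqcrq. Both counts depend on how arrays are scaled. The median gene differed by -0.07, 0.03 and 0.01 log2 units in experiments 1 to 3. With each array centred on its median gene, 6 members were below 0 in all 3 experiments, against 9.82% of all genes, and 3 members had all irradiated arrays below all controls, against 3.71%. Without experiment 1 the count below 0 in both others was 36 of 56, against 24.3% of all genes. Without experiment 2 it was 22, against 25.8%, and without experiment 3 it was 28, against 27.55%. Without experiments 1, 2 and 3 in turn, 33, 18 and 22 members had all irradiated arrays below all controls, against 17.2%, 15.8% and 18.7% of all genes.

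**Figure D3:**
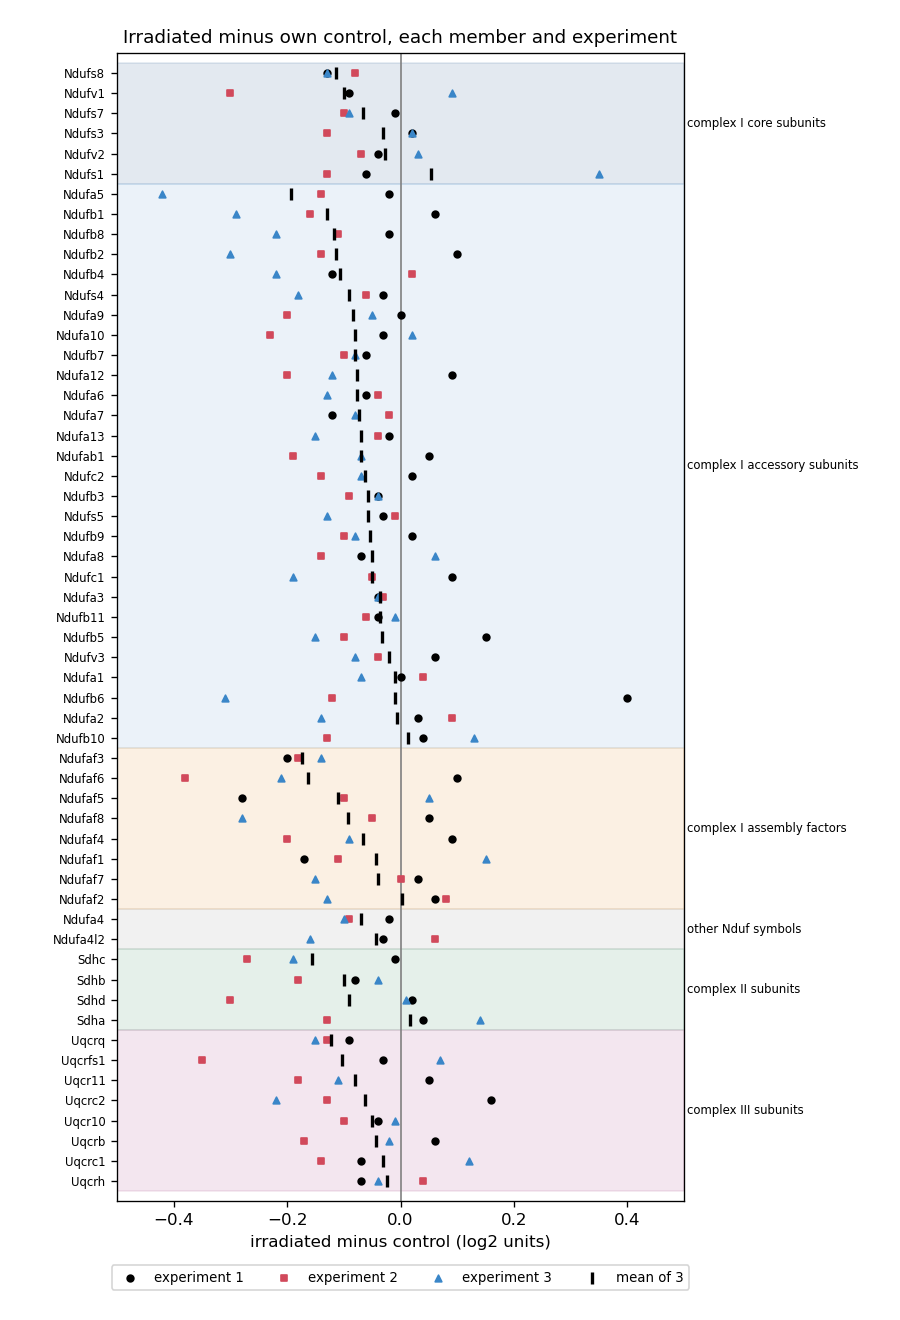
The horizontal axis gives the irradiated-minus-control difference in log2 units for each of the 56 members (rows, shaded by role), with a symbol per experiment and a black bar at the mean. The means of 52 members lie left of 0. In experiment 1, Ndufb6 stands furthest to the right, at 0.40.

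Core subunits of complex I carry the flavin and iron-sulphur clusters. Under the rule 6 nuclear-encoded ones were analysed. Ndufv2, an iron-sulphur subunit, was the brightest, at 11.69, 11.65 and 11.70 in irradiated cultures and 11.73, 11.72 and 11.67 in controls. These ranges overlapped, and the difference was -0.027 (SE 0.078). Ndufs8, which carries iron-sulphur clusters on the path to ubiquinone, had 11.30, 11.37 and 11.44 in irradiated cultures, against 11.43, 11.45 and 11.57 in controls. Every irradiated culture was below its own control, by 0.13, 0.08 and 0.13 log2 units, while the groups overlapped by 0.01, and the mean difference was -0.11 (SE 0.076). The 5 other probe sets of Ndufs8 had means of -0.11 to -0.05. Ndufs1, another iron-sulphur subunit, stood at 9.88, 9.87 and 10.07 in irradiated cultures, against 9.94, 10 and 9.72 in controls. Its mean of 0.053 (SE 0.11), the highest of any member, came from experiment 3 at 0.35, with -0.06 and -0.13 in experiments 1 and 2. Of the core subunits 5 of 6 had a mean below 0, Ndufv1, the NADH-binding subunit, at -0.10 with -0.30 in experiment 2. Ndufs7 had a mean of -0.067 and Ndufs3 one of -0.030.

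Accessory subunits surround the core and stabilise it. Their means were below 0 in 27 of 28, from -0.19 to 0.013, with a median of -0.067. Ndufa5, of the matrix arm, had the lowest mean of all members. It stood at 10.28, 10.24 and 10.16 in irradiated cultures, against 10.30, 10.38 and 10.58 in controls. The groups did not overlap, and the differences were -0.02, -0.14 and -0.42, so that the mean of -0.19 (SE 0.10, 95% interval -0.43 to 0.045) came largely from experiment 3. Its second probe set, at a level of 9.91, gave -0.08, -0.16 and -0.26. Ndufa1, a small membrane-arm subunit and the brightest of the accessory subunits, had 12.61, 12.61 and 12.57 in irradiated cultures, against 12.61, 12.57 and 12.64 in controls, a mean of -0.010 (SE 0.078). Ndufb10 was the single accessory subunit with a mean above 0, with 10.59, 10.49 and 10.63 in irradiated cultures, against 10.55, 10.62 and 10.50 in controls. Its groups overlapped, at a mean of 0.013 (SE 0.087).

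Several accessory subunits differed by small and similar amounts in each experiment. Ndufa3 differed by -0.04, -0.03 and -0.04 in the 3 experiments. Ndufb3 stood at -0.04, -0.09 and -0.04, Ndufb7 at -0.06, -0.10 and -0.08, and Ndufb11 at -0.04, -0.06 and -0.01. Ndufs4, whose loss in mice causes a Leigh-like brain disease, had a mean of -0.090 (SE 0.080), and Ndufb8 one of -0.12 (SE 0.082). Means of Ndufa6, Ndufa7, Ndufa9, Ndufa10, Ndufa12, Ndufa13 and the acyl carrier protein Ndufab1 lay between -0.083 and -0.070. Those of Ndufa2, Ndufa8, Ndufb5, Ndufb9, Ndufc1, Ndufc2, Ndufs5 and Ndufv3 lay between -0.063 and -0.0067. Ndufb1 (-0.13), Ndufb2 (-0.11) and Ndufb4 (-0.11) had means below these ranges. Ndufb6 spread most, at 0.40, -0.12 and -0.31, whereas its other probe set gave 0.01, -0.14 and -0.16.

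In experiment 3 the mean was -0.12 over accessory subunits, with 25 of 28 below 0, and 0.045 over core subunits, with 2 of 6 below 0. The difference between these groups was not tested. The core mean rests on Ndufs1 at 0.35, with the other 5 between -0.13 and 0.09. The dimmer probe sets of Ndufv1 (-0.07 and -0.03) and Ndufv2 (-0.19 and -0.11) were below 0 in that experiment, where the ones used gave 0.09 and 0.03. In experiment 2 the mean was -0.089 over accessory and -0.14 over core subunits. The control array of experiment 3, whose RNA quality values are given above, was the highest of the 6 over accessory subunits, at 0.076 above their mean.

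Assembly factors of complex I had a median difference of -0.080, against -0.065 over the 34 complex I subunits. By experiment the medians were 0.040, -0.11 and -0.14 for assembly factors and -0.020, -0.10 and -0.080 for subunits, so neither group was the lower one throughout. The median SD of the differences between experiments was 0.16 log2 units over assembly factors and 0.093 over subunits. It was 0.14 over all genes and 0.11 over genes at or above the 90th percentile of level. At or above that percentile lay 0 of 8 assembly factors and 29 of 34 subunits. No value was computed for genes between the median and that percentile, where the assembly factors lay. Ndufaf3, which acts early in building the arm that binds ubiquinone, had 7.80, 7.87 and 7.88 in irradiated cultures, against 8.0, 8.05 and 8.02 in controls. All irradiated cultures lay below all controls, and the differences of -0.20, -0.18 and -0.14 were close to each other. Its mean was -0.17 (SE 0.076, 95% interval -0.36 to 0.0092), and limma with Benjamini-Hochberg gave an adjusted p of 0.995. Ndufaf4, its partner in that step, had 9.68, 9.64 and 9.71 in irradiated cultures, against 9.59, 9.84 and 9.80 in controls, with a mean of -0.067 (SE 0.089) and overlapping groups. Ndufaf2, a relative of the subunit Ndufa12, had 8.34, 8.27 and 8.20 in irradiated cultures, against 8.28, 8.19 and 8.33 in controls, with a mean of 0.0033 (SE 0.084). The others had means of -0.16 (Ndufaf6), -0.11 (Ndufaf5), -0.093 (Ndufaf8), -0.043 (Ndufaf1) and -0.040 (Ndufaf7), each with at least 1 experiment at or above 0.

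Ndufa4 and Ndufa4l2 are close relatives in sequence but stood far apart on the array's scale. Ndufa4 had 12.33, 12.27 and 12.34 in irradiated cultures, against 12.35, 12.36 and 12.44 in controls. Its groups did not overlap, with a gap of 0.01, and the mean was -0.070 (SE 0.077). Ndufa4l2 had 5.84, 5.85 and 5.86 in irradiated cultures, against 5.87, 5.79 and 6.02 in controls. Its groups overlapped, at a mean of -0.043 (SE 0.083).

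Complex II, which is also the succinate dehydrogenase of the citric acid cycle, was furthest below 0 in experiment 2. Its 4 subunits averaged -0.22 there, against -0.0075 in experiment 1 and -0.020 in experiment 3. Sdha, the flavoprotein that oxidises succinate, had 10.98, 10.93 and 11.05 in irradiated cultures, against 10.94, 11.06 and 10.91 in controls, with a mean of 0.017 (SE 0.087). Sdhb, the iron-sulphur subunit, had 11.06, 10.96 and 11.09 in irradiated cultures, against 11.14, 11.14 and 11.13 in controls. Its groups did not overlap, and the mean was -0.10 (SE 0.079). Sdhc, a membrane anchor, had 10.26, 10.07 and 10.17 in irradiated cultures, against 10.27, 10.34 and 10.36 in controls. Here too the groups did not overlap, by 0.01 at the closest, and the mean was -0.16 (SE 0.087, 95% interval -0.36 to 0.051). Sdhd, the other anchor, had 10.86, 10.60 and 10.86 in irradiated cultures, against 10.84, 10.90 and 10.85 in controls. Only the irradiated culture of experiment 2 stood apart, and the mean was -0.090 (SE 0.095). A dimmer probe set of Sdhd (level 9.13) gave 0.63, -0.19 and -0.45, and one of Sdhc (level 8.72) 0.10, -0.14 and 0.03.

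**Figure D4:**
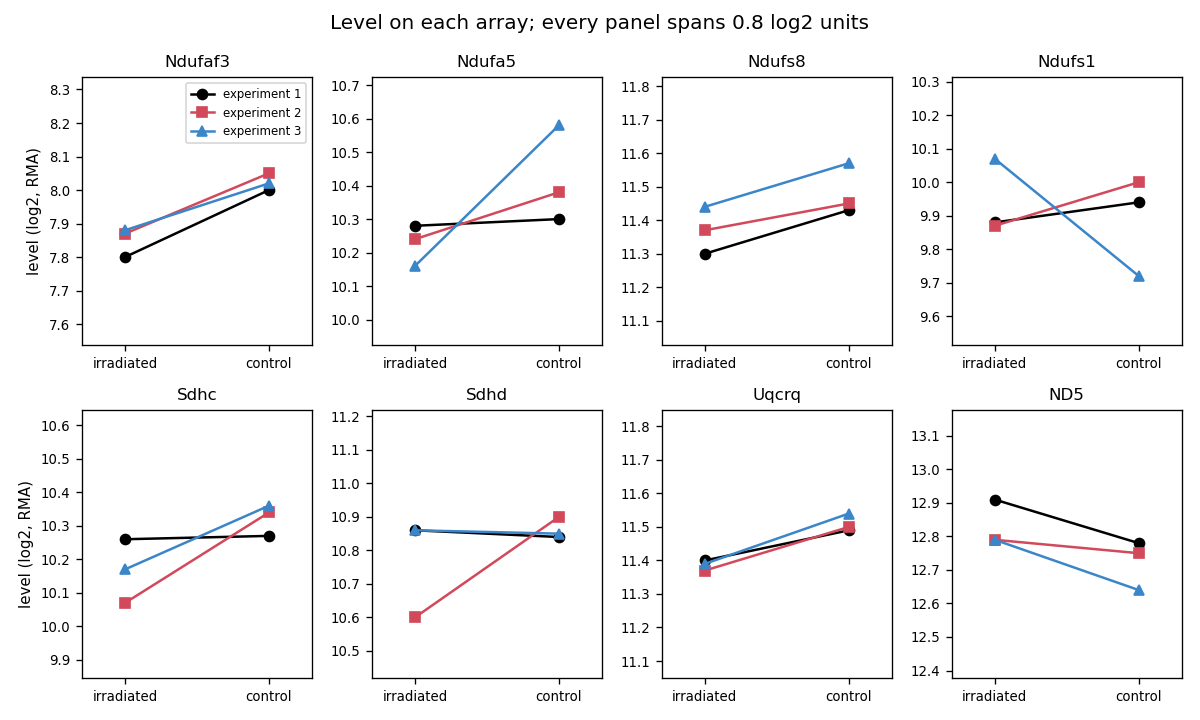
Each panel gives the log2 level (vertical axis) of 1 gene on the 6 arrays, irradiated on the left and control on the right, with a line joining the cultures of 1 experiment. Lines of Ndufaf3, Ndufa5, Ndufs8, Sdhc and Uqcrq slope up to the control in all 3 experiments, that of Sdhd in experiment 2. Ndufs1 in experiment 3 and mitochondrial ND5 in all 3 slope down.

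All 8 complex III subunits had a mean below 0, from -0.12 to -0.023. Their mean by experiment was -0.0037, -0.15 and -0.045. Uqcrq, a small ubiquinone-binding subunit, had 11.40, 11.37 and 11.39 in irradiated cultures, against 11.49, 11.50 and 11.54 in controls. The groups did not overlap, the differences were -0.09, -0.13 and -0.15, and the mean was -0.12 (SE 0.076). This probe set carries a suffix for probes shared between transcripts, and 3 dim ones (levels 4.98 to 5.31) gave means of -0.21, -0.03 and 0.11. Uqcrfs1, the Rieske iron-sulphur protein, had 10.88, 10.63 and 10.80 in irradiated cultures, against 10.91, 10.98 and 10.73 in controls. The irradiated culture of experiment 2 was the lowest, at a difference of -0.35, and the mean was -0.10 (SE 0.10).

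Core proteins of complex III, which face the matrix, differed in sign in experiments 1 and 3 by the probe sets used. Uqcrc1 had 11.37, 11.35 and 11.43 in irradiated cultures, against 11.44, 11.49 and 11.31 in controls, with differences of -0.07, -0.14 and 0.12. Uqcrc2 had 11.23, 11.08 and 11.03 in irradiated cultures, against 11.07, 11.21 and 11.25 in controls, with differences of 0.16, -0.13 and -0.22. In experiment 2 both were below 0, and their means were -0.030 (SE 0.087) and -0.063 (SE 0.098). A second probe set of Uqcrc2, at a level of 11.055, gave -0.07, -0.16 and 0, so the contrast in sign depended on the probe set. Uqcrb, a subunit near the ubiquinone site and the brightest of all members, had 13.60, 13.45 and 13.55 in irradiated cultures, against 13.54, 13.62 and 13.57 in controls. Uqcrh, the hinge protein that helps to dock cytochrome c1, had 12.03, 11.98 and 11.93 in irradiated cultures, against 12.10, 11.94 and 11.97 in controls. Both overlapped between groups, at means of -0.043 (SE 0.084) and -0.023 (SE 0.078). Of the small subunits, Uqcr10 had 11.48, 11.37 and 11.51 in irradiated cultures, against 11.52, 11.47 and 11.52 in controls (mean -0.050, SE 0.077). Uqcr11 had 11.73, 11.59 and 11.67 in irradiated cultures, against 11.68, 11.77 and 11.78 in controls (mean -0.080, SE 0.084).

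Further probe sets mostly gave the same sign. Of 27 members with several probe sets at or above the median gene, 25 had every mean below 0. Sdha had both above 0, and Uqcrb had one on each side. The 39 further probe sets themselves had a median of -0.077, with 37 below 0 in mean, and 26, 37 and 32 below 0 in experiments 1 to 3. They are read from the same arrays as the first ones and are no further replicates.

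Across the 56 members, the differences of one experiment did not line up with those of another. Pearson's r was -0.095 between experiments 1 and 2, -0.39 between 1 and 3, and -0.17 between 2 and 3. Over all 18193 genes it was -0.077, -0.079 and -0.021. These are correlations across genes, which are no independent replicates, and no experiment shares an array with another.

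Other genes of the pathway, from lists written by name, gave 0 calls too in limma with Benjamini-Hochberg. At an unadjusted p under 0.05 limma gave 1 of them, Lyrm2 of complex I assembly, at -0.18 (SE 0.076). Of all genes it gave 1.89% lower and 1.42% higher at that threshold. A mean below 0 was found in 53.3% of all genes, the share beside which the list counts stand. Among 10 other complex I assembly genes the mean was below 0 in 6, from Lyrm2 to Foxred1 at 0.087. Complex IV had 10 of 14 below 0 (median -0.060), from Cox4i2 at -0.12 to Cox8b at 0.19, and ATP synthase 12 of 15 (median -0.057), from Atp5k at -0.14 to Atp5b at 0.020. The 7 electron carriers and other donors to ubiquinone were all below 0 (median -0.060), from Dhodh at -0.18 to Cycs, which is cytochrome c, and Etfa at -0.023 each. The citric acid cycle had 10 of 12 below 0 (median -0.060), from Dld at -0.13 to Suclg2 at 0.013. Complex II assembly genes were below 0 in 2 of 4, from Sdhaf1 at -0.047 to Sdhaf2 at 0.10. Further complex III genes were below 0 in 4 of 7, with Bcs1l, which inserts the Rieske protein, at -0.20 (SE 0.093) and Lyrm7 at 0.10. Cyc1, the cytochrome c1 of complex III that the symbol rule leaves out, stood at 0.023.

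Transcription regulators of the chain had no common direction. Of 12, 8 had a mean below 0 and 3 above. The coactivator Ppargc1a had the highest, 0.35 (SE 0.15; 0.71, 0.44 and -0.10 by experiment), at a level of 4.40 that is below the median gene, and Ppargc1b the lowest, -0.27 (SE 0.16), with -0.78 in experiment 2. Nrf1 stood at -0.037, Gabpa at 0.070 and Yy1 at 0.027. Only the 47 members with a promoter entry were compared by these letters. The 7 whose promoter holds the NRF1 letters had a median difference of -0.077, against -0.068 for those without. For the YY1 letters (7 members) it was -0.083, against -0.068, and for the ETS letters (3 members) -0.030, against -0.070.

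The mitochondrially encoded ND5, a proton-pumping subunit of complex I, lay on the other side of 0. None of the 8 mitochondrially encoded genes listed had a match under its mt- symbol. ND5, which the annotation names without that prefix, is no member by the rule and was picked out after its values were seen. ND5 had 12.91, 12.79 and 12.79 in irradiated cultures, against 12.78, 12.75 and 12.64 in controls. All irradiated cultures lay above all controls, by 0.01 at the closest, and the mean was 0.11 (SE 0.078, adjusted p 0.995 in limma with Benjamini-Hochberg).

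Fat cell markers, too, were furthest below 0 in experiment 2. There the 9 markers averaged -0.49, with 9 of 9 below 0, while the citric acid cycle averaged -0.26 and the members -0.11. In experiments 1 and 3 the markers averaged 0.074 and 0.042, against -0.0059 and -0.083 for the members. The mean level of the markers ran over 11.15, 10.78 and 10.93 in irradiated cultures and 11.08, 11.26 and 10.88 in controls. For the members it was 10.56, 10.48 and 10.53 in irradiated cultures and 10.56, 10.59 and 10.61 in controls. Macrophage markers averaged -0.17, 0.077 and 0.096 in experiments 1 to 3 and mesenchymal stromal markers 0.061, 0.10 and 0.019. Without experiment 2 the mean over members was -0.044, with 44 of 56 below 0 (52.9% of all genes). Fewer cells of a type and less RNA per cell cannot be told apart in such cultures, and the part of the fat cell share in these differences was not tested.

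**Figure D5:**
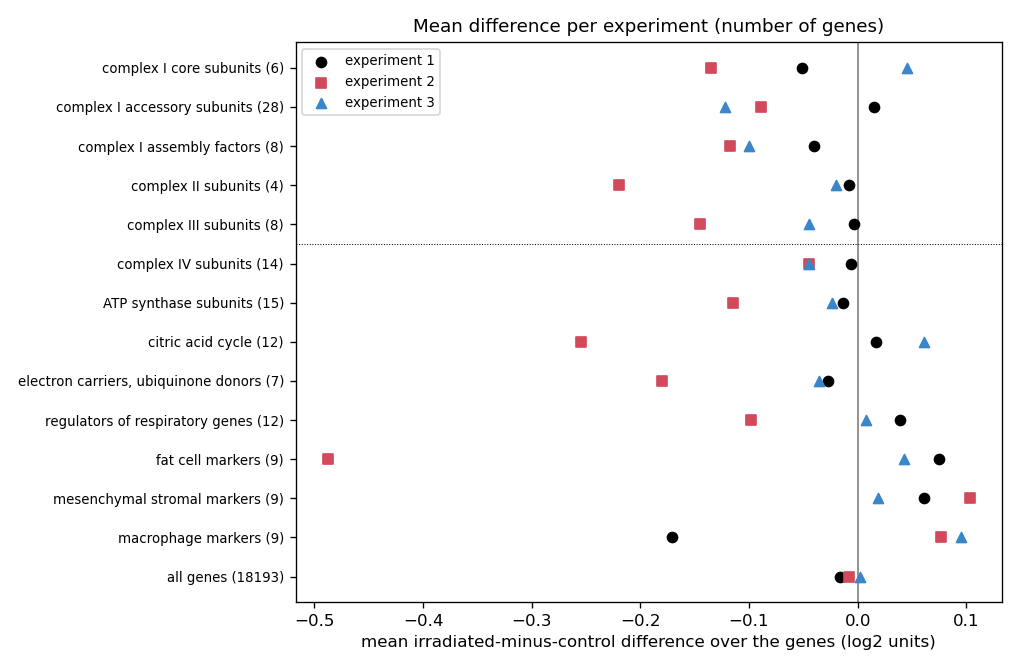
The horizontal axis gives the mean irradiated-minus-control difference in log2 units over the genes of each group (rows, number of genes in brackets), with a symbol per experiment. Above the dotted line are the role groups of complexes I to III. Fat cell markers stand at -0.49 in experiment 2, and complex II at -0.22.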

How the data were processed

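The deposited values are log2 expression levels per probe set, 1 column per culture, which the authors made with RMA (background correction, quantile normalization over arrays, summary of probes), per the submitters' processing notes, which also name affy and limma, versions not given in the sources used here, and the log base was taken from the range of the values, 1.73 to 14.53. Quantile normalization hides a change common to all transcripts.

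Of 45101 probe sets, 64 array controls were left out. The platform annotation names 1 symbol for 34945, several for 932 and none for 9160, and 34741 matched a current gene table by Entrez identifier, with 0 symbols changed. The brightest probe set stood for each of 18193 genes, with no filter on dim ones. limma 3.58.1 (R 4.3.3; lmFit and eBayes, default settings) was fitted on all genes, irradiated minus control with the experiment as a block. Calls needed a Benjamini-Hochberg adjusted p under 0.05 over all genes. The scripts were tested on simulated data.

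The pairing comes from the design text, which sets each irradiated culture beside a control of its own experiment. Deviations from group means of same-numbered arrays correlated across genes at 0.15, -0.090 and -0.012 in experiments 1 to 3. Between arrays of different numbers the correlations ran from -0.13 to 0.16. The highest were 0.16 for irradiated 2 with control 3 and 0.13 for irradiated 3 with control 2. These values do not bear out the pairing in experiments 2 and 3, which rests on the design text.

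Members and gene lists were chosen with earlier results of these data known. The named genes are all complex II and III subunits, the brightest, highest and lowest member of each other role, and the 4 members with the smallest p (23 genes in all). Other members are given by range or value, so that each appears. Alternatives were no block, leaving out each experiment, other probe sets, other scaling, a filter on dim genes, and trended robust eBayes. Cyc1, Nrf1, Gabpa and Yy1 were added to the highest and lowest gene of each pathway list. Promoter sequences are from RefSeq (GRCm38.p6).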

Additional observations from a re-analysis of the deposited data

How the results depend on the processing

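Under all 9 alternatives limma with Benjamini-Hochberg called 0 members and 0 genes, with 495 to 649 of the genes at an unadjusted p under 0.05 where the gene set was not filtered for level, and 240 where it was. The number of members at an unadjusted p under 0.05, 0 in the reported fit, was 0 to 1 when 1 experiment was left out (1 without experiment 1, Ndufaf6). It was 1 without the replicate block, with the mean over probe sets, at or above the median gene level, and with trended robust eBayes (Ndufaf3 each time), and 1 without probe sets ending in _s_at or _x_at (Ndufab1). The fit without the block, which ignores the pairing, left the differences as they were and changed no call (p for Ndufaf3 in limma 0.0278 unadjusted, 0.997 adjusted with Benjamini-Hochberg).

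Members below 0 in every experiment used, 19 in the reported setting, numbered 22 to 36 when 1 experiment was left out and 6 with arrays centred on their median gene. Members with all irradiated arrays below all controls, 11 in the reported setting, numbered 18 to 33 when 1 experiment was left out and 3 after centring. The mean over members in experiment 1, -0.0059 in the reported setting, was 0.064 after centring and 0.0011 without _s_at and _x_at probe sets. The complex III median ran from -0.12 to -0.028 when 1 experiment was left out. Over the same settings the median ran from -0.075 to -0.0025 for core subunits, from -0.098 to -0.040 for accessory subunits, from -0.11 to -0.058 for assembly factors and from -0.14 to -0.023 for complex II, each nearest 0 without experiment 2. The mean over all members stayed below 0 under every alternative, between -0.098 and -0.044. Of the 23 named members, 5 had another sign without experiment 2 (Ndufaf2, Sdhd, Uqcrb, Uqcrc1, Uqcrfs1), 6 without experiment 3 (Ndufa1, Ndufa4l2, Ndufb10, Ndufs1, Sdha, Uqcrc2), and 1 each without experiment 1 (Ndufaf2), with the mean over probe sets (Sdha) and without _s_at and _x_at probe sets (Uqcrq). The causes were not tested. Changes within the intervals of about 0.20 log2 units to either side are beyond what 3 pairs of arrays resolve.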

Other observations

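Of the probe sets that the annotation assigns to several genes, 10 name a gene of these complexes and entered no count above. Ndufa11 and Ndufs6 are read by such probe sets alone. The brighter one of Ndufa11, a membrane-arm accessory subunit, and Ndufa11b had a level of 11.03 (the deposited values averaged over 6 arrays) and differences of -0.03, -0.10 and -0.08 in experiments 1 to 3. That of Ndufs6 and Ndufs6b (level 10.78) gave 0.03, -0.13 and -0.17. The brightest one naming Ndufb4 together with Ndufb4b and Ndufb4c (level 10.92) gave -0.06, 0.07 and -0.16, and the one naming Ndufs5 and Ndufs5-ps (level 11.06) 0.06, -0.07 and -0.11. The mean of each of these 4 was below 0, from -0.090 to -0.040, and that of Ndufa11 alone was below 0 in all 3 experiments.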
